A study of Mus musculus with 6 samples.

Results

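The genes described are Tent5c, Cd24a, Prxl2a, Ctse, Emb, Specc1, Cdr2, Ccndbp1, Tspan8 and Tspan33, 10 of 21506 genes tested. They were chosen by their sickle minus control difference on these same arrays, as genes clearly higher in sickle left ventricle that stand on none of the usual lists of red-cell genes. Each had 1 row in the array table except Emb, which had 2. That difference is therefore given for these genes as a description with no test.

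The sickle group was 3 male mice homozygous for the engineered globin alleles Hbatm1(HBA)Tow and Hbbtm2(HBG1,HBB*)Tow, and the control group was 3 male mice with Hbatm1(HBA)Tow and the non-sickling Hbbtm3(HBG1,HBB)Tow, aged 10 to 14 weeks. Both lines are B6;129, and both carry human alpha-type and gamma-type globin genes in every cell, so what is compared is sickle against non-sickling human beta-globin and not human against mouse haemoglobin. Total RNA of the left ventricle was hybridised to Mouse Gene 2.0 ST arrays, 1 mouse each, and values are log2 units after RMA, so a difference of 1 is a doubling. Of the arrays, sickle replicate 3 stood apart, with 340 genes more than doubled relative to the average of the other sickle arrays. The same count was 13 to 25 for each other array within its own group. Control replicate 3 was high among the control arrays for several atrial markers, most for Sln and Myl7. Sln had 3.16, 3.36 and 8.08 and Myl7 4.31, 4.51 and 7.75 in control replicates 1, 2 and 3. Dkk3 had 5.94, 6.07 and 7.19 and Myl4 5.12, 5.02 and 5.93 in the same arrays. Nppa (12.63, 12.72 and 12.74) and Bmp10 (4.82, 5.33 and 5.01) did not stand out there. Cardiomyocyte markers were bright on all arrays (all 10 of those measured were above the 25th percentile of genes, with a summed linear signal of 63998 to 71366 in sickle and 69810 to 70486 in control).

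The red-cell lineage fills and then sheds its organelles, and its last nucleus-free stage, the reticulocyte, still carries RNA into the circulation. In sickle disease red cells are short-lived and reticulocytes are numerous. The 10 genes have no single shared function. They include enzymes (Tent5c, Prxl2a, Ctse), surface proteins (Cd24a, Emb, Tspan8, Tspan33) and proteins inside the cell without a catalytic role (Specc1, Cdr2, Ccndbp1). Some are known from blood cells: Cd24a marks immature red cells, B cells and neutrophils in mice, Tspan33 was described in mouse erythroid progenitors under the name Penumbra, and cathepsin E sits in the membrane of human red cells.

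In these ventricles the 10 genes were 1.93-fold to 5.68-fold higher in sickle than in control, with a median difference of 1.80, where the median over all genes was -0.01. Ctse, Tent5c, Cd24a and Specc1 were over 4-fold higher, Prxl2a, Emb, Cdr2, Tspan8 and Tspan33 between 2-fold and 4-fold, and Ccndbp1 just under 2-fold. Ranked by difference among all genes, Ctse stood at place 4 and Ccndbp1 at place 72, so not all of the group are among the strongest risers. All 10 had every sickle array above every control array, as did 7.61% of all genes, and all 10 passed limma's adjusted p of 0.05 for a rise, as did 0.167% of all genes (0.181% in either direction). Those counts restate how the genes were picked. They numbered 8 without sickle replicate 1, 5 without sickle replicate 2, 5 without sickle replicate 3, and 4, 3 and 3 without control replicates 1, 2 and 3.

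Of the enzymes, Tent5c is a cytoplasmic poly(A) polymerase that lengthens the tails of messenger RNAs, best known in antibody-secreting cells. It had 9.60, 10.09 and 9.86 in the sickle arrays, against 7.56, 7.40 and 7.34 in the control arrays. The lowest sickle array lay 2.04 above the highest control array, the widest such gap in the group. The difference was 2.42 ± 0.14 (SE).

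Prxl2a encodes a small thioredoxin-fold protein related to the peroxiredoxins. Its values were 10.20, 10.61 and 10.47 in sickle and 8.62, 8.52 and 8.57 in control. The control arrays agreed within 0.10, tighter than for any other of the 10 genes, and the difference was 1.86 ± 0.12 (SE).

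Ctse encodes cathepsin E, an aspartic protease of endosomes. Sickle arrays read 8.25, 8.89 and 9.21, and control arrays 6.20, 6.49 and 6.13. It had the largest difference, 2.51 ± 0.23 (SE), and also the widest spread among sickle mice, 0.96 between replicates 1 and 3.

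On the cell surface, Cd24a (the heat-stable antigen, a heavily glycosylated protein held by a lipid anchor) had 10.10, 10.54 and 10.17 in sickle and 8.12, 7.84 and 7.85 in control. The groups were 1.98 apart at their nearest arrays. The difference was 2.33 ± 0.15 (SE).

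Emb encodes embigin, an immunoglobulin-family partner of monocarboxylate transporters. Its brighter row had 7.19, 7.69 and 8.12 in sickle and 5.77, 6.01 and 6.04 in control, a difference of 1.73 ± 0.22 (SE). The dimmer row had 5.11, 5.51 and 5.15 in sickle and 5.34, 5.22 and 5.30 in control. There the groups overlapped and the difference was -0.02, so the 2 rows of this gene disagreed, and with their mean the difference was 0.85. Which part of the gene each row covers is not known here.

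Tspan8 and Tspan33 belong to the tetraspanins, proteins with 4 membrane passes that organise other proteins at the surface. Tspan8, known chiefly from epithelia, was the dimmest of the 10 genes, at the 24.3 percentile of all genes by mean signal, with 4.88, 4.77 and 4.89 in sickle and 3.35, 3.61 and 3.69 in control. Tspan33, which escorts the protease Adam10, had 6.30, 6.43 and 6.51 in sickle and 5.14, 5.35 and 5.61 in control. The differences were 1.30 ± 0.12 and 1.05 ± 0.14 (SE). In both genes the control arrays were more scattered than the sickle arrays (SD 0.18 and 0.23 in control, against 0.07 and 0.11 in sickle, n = 3), and in the other 8 genes the sickle arrays were.

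Inside the cell, Specc1 encodes a coiled-coil protein with a calponin homology domain, of the cytospin family. It had 7.54, 8.47 and 8.01 in sickle and 5.86, 6.002 and 6.13 in control. The sickle mice spanned 0.93, and the groups were still 1.41 apart. Its difference was 2.01 ± 0.22 (SE).

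Cdr2, the antigen recognised by the antibodies of patients with paraneoplastic cerebellar degeneration, had 8.10, 8.65 and 8.64 in sickle and 7.01, 7.15 and 7.08 in control. Sickle replicate 1 was below the other sickle mice and 0.95 above the highest control. The difference was 1.39 ± 0.16 (SE).

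Ccndbp1 encodes a helix-loop-helix protein that binds cyclin D1. Values were 8.77, 9.08 and 8.84 in sickle and 8.05, 8.01 and 7.80 in control. With 0.94 ± 0.12 (SE) this was the smallest difference of the 10, and its nearest arrays were 0.73 apart.

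**Figure D1:**
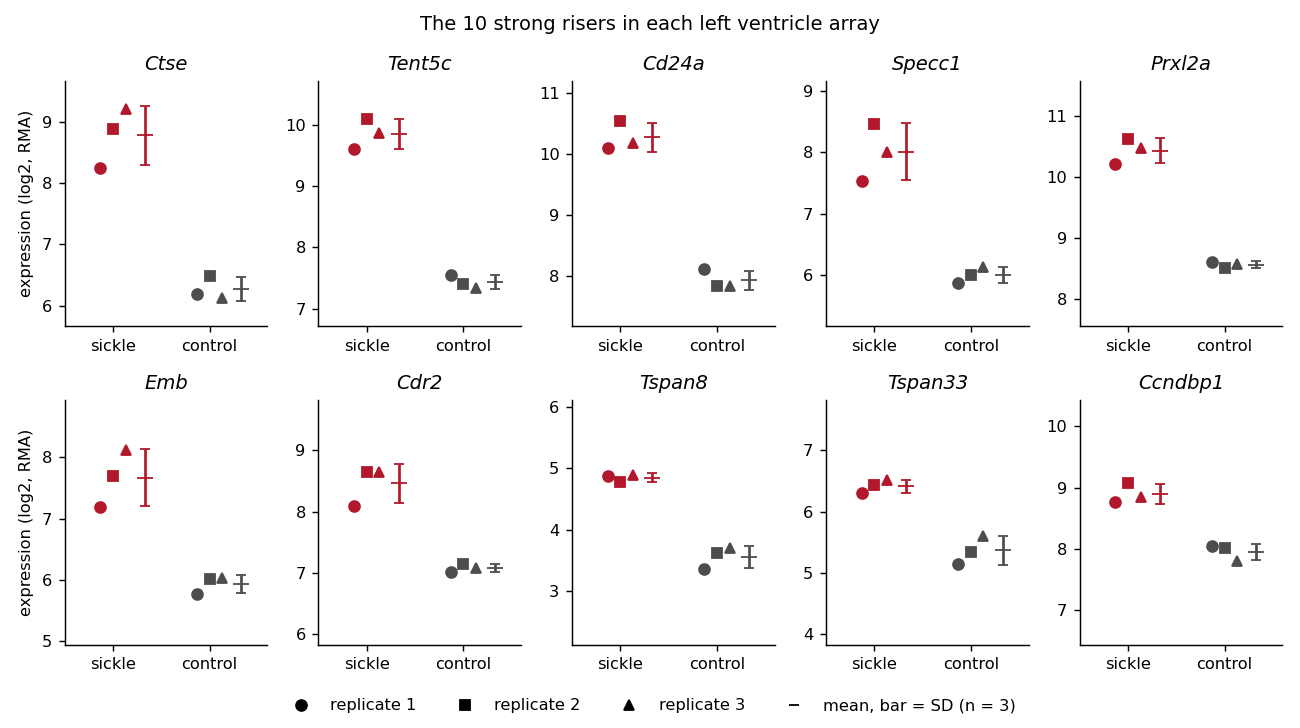
Expression (log2 after RMA) of the 10 genes, 1 panel each, ordered by their difference; points are arrays (sickle left in red, control right in grey, marker shape by replicate number) and bars are mean ± SD (n = 3), with every vertical axis spanning 4 log2 units. No sickle point falls to the level of a control point, the gap is widest for Tent5c (2.04) and narrowest for Tspan33 (0.69), and Ctse, Specc1 and Emb spread most among sickle mice.

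The sickle mice were ordered alike across most of the group. Replicate 1 was the lowest sickle array for 9 of the 10 genes, all but Tspan8. Replicate 2 was the highest for Tent5c, Cd24a, Prxl2a, Specc1, Cdr2 and Ccndbp1, and replicate 3 for Ctse, Emb, Tspan8 and Tspan33. Relative to the control mean, the median of the 10 genes was 1.44, 1.90 and 1.96 in sickle replicates 1, 2 and 3, while single control arrays lay between -0.22 and 0.24 for every member. Over all genes, replicate 1 was the lowest sickle array for 29.7%. Among the 26 other genes called higher it was the lowest for 22. The order of the 3 mice is 1 observation repeated over genes and carries no test.

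Signals of other cells moved with the group to differing degrees, and their part in it was not tested. Of 26 measured red-cell genes, 23 were above control, against 48.4% of all genes. Their median was 0.68 (0.67 without sickle replicate 3). Their summed linear signal was 8016 to 10912 in sickle and 3945 to 4518 in control. Limma called 10 of them higher, where 0.167% of all genes were. Among these were Slc4a1 (3.31), Hbq1a (2.28), Epb42 (2.27), Trim10 (2.19), Isg20 (2.00) and Slc25a37 (1.88). The red-cell genes not called ranged from Gypc (-0.21) to Fech (1.05). Epor (-0.15) and Sptb (-0.10) were also below control. The erythroid regulators Klf1 (0.18), Tal1 (0.21), Nfe2 (0.22) and Gata1 (0.24) were not called. The list was drawn up with these results known. The number called was 10, 5 and 6 without sickle replicates 1, 2 and 3, and 4, 1 and 0 without control replicates 1, 2 and 3. Relative to control, the 10 called red-cell genes had medians of 1.61, 2.25 and 1.98 in sickle replicates 1, 2 and 3. They are part of the 26 other genes called higher, of which 22 were lowest in replicate 1. Of the 10 called red-cell genes, 9 were lowest in replicate 1. Which cells give the low replicate 1 was not tested. The red-cell median was highest in replicate 2 and that of the 10 members in replicate 3. In bulk tissue, more cells of a type and more RNA per cell cannot be told apart. Alas2 and Ahsp, which mark the lineage, were not among the genes tested.

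B-cell markers, of interest because Cd24a, Tent5c and Tspan33 are also known from that lineage, had a list median that fell from sickle replicate 1 to 3. Their median relative to control was 0.70, 0.35 and 0.03 in replicates 1, 2 and 3. Single markers differed: Cd79a, Blk, Fcer2a, Cr2 and Pax5 fell at each step, while Ms4a1, Cd79b, Cd22 and Fcrla did not. The summed signal of the B-cell markers was 324 to 421 in sickle and 263 to 267 in control. Over all arrays 8 of 9 B-cell markers were above control, against 48.4% of all genes. One, Cd79a, was called higher (1.12 ± 0.15, SE; limma adjusted p = 0.0484), and it was not called with any 1 of the 6 arrays left out. Epithelial markers, of interest for Tspan8, Ctse and Cd24a, had a summed signal of 318 to 325 in sickle and 310 to 313 in control. Their median difference was 0.04, and Krt18 (0.26) and Muc1 (0.20) had the largest differences. Markers of T and NK cells were above control for 8 of 8 genes, against 48.4% of all genes. Limma called 0 of them, near the share of 0.181% of all genes. Their median was 0.28 over all arrays and without sickle replicate 3, and 0.28, 0.28 and 0.22 in sickle replicates 1, 2 and 3. Their summed signal was 282 to 298 in sickle and 208 to 242 in control. Neutrophil and platelet markers had medians of 0.10 and 0.02.

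The medians of the fibroblast and macrophage lists were near control in sickle replicates 1 and 2 and high in replicate 3. The 10 genes were above control in all 3 sickle arrays, which restates how they were picked. The part of these cells in the rise was not tested. Single markers differed from their list: Postn and Lum, of the fibroblast list, and Csf1r and Lyz2, of the macrophage list, had every sickle array above every control array. Fibroblast markers had medians of 0.03, 0.18 and 2.30 relative to control in sickle replicates 1, 2 and 3, with a summed signal of 7143 to 21410 in sickle and 6516 to 7548 in control. Macrophage markers had 0.05, 0.17 and 1.33, with a summed signal of 2521 to 6069 in sickle and 2268 to 2577 in control. Without sickle replicate 3 the median difference of the 10 genes was 1.67. Emb shifted most, and its difference fell by 0.23 when that array was left out. Ctse then had 2.29, Tent5c 2.41, Cd24a 2.38 and Ccndbp1 0.97.

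**Figure D2:**
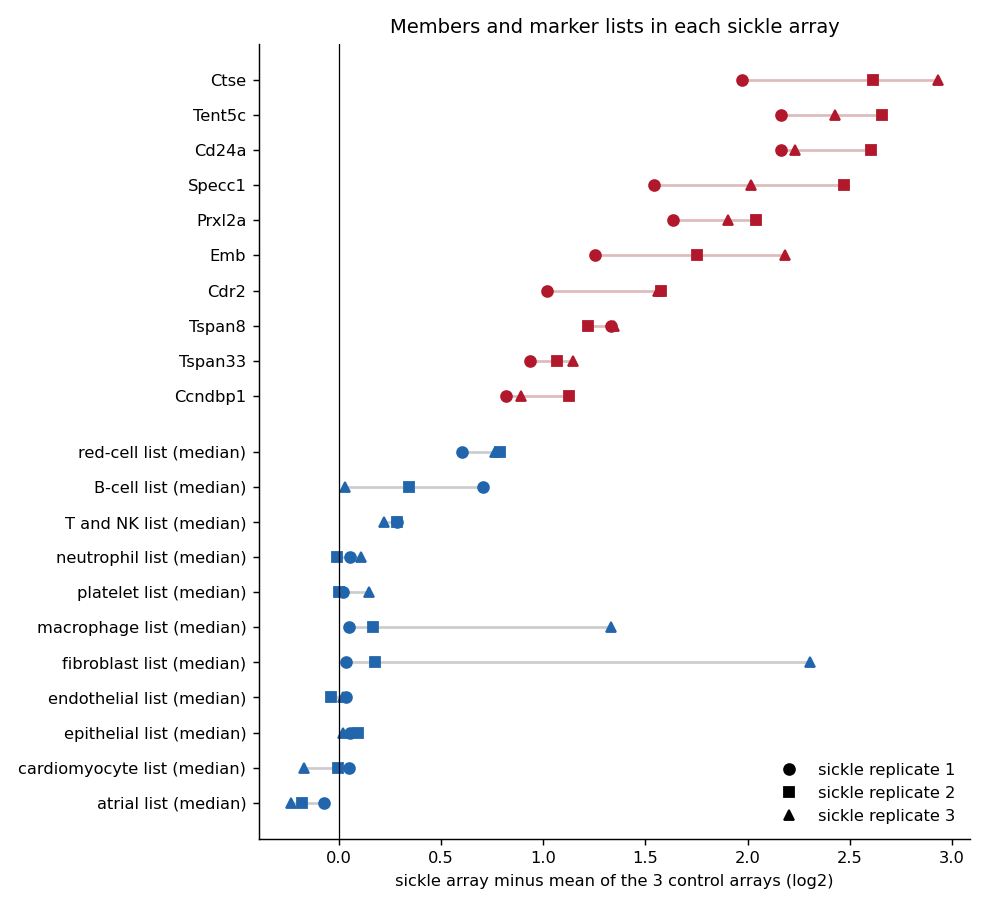
Each sickle array minus the mean of the 3 control arrays (log2), for the 10 genes in red and for the median of each marker list in blue, with marker shape by replicate. The 10 genes, picked for their rise, lie between 0.82 and 2.93 in all 3 sickle arrays. The fibroblast and macrophage medians are near 0 in replicates 1 and 2 and reach 2.30 and 1.33 in replicate 3.

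Which other genes had profiles most like each member was measured by the root mean square difference over the 6 arrays, after subtracting each gene's control mean. Tent5c and Cd24a were each other's nearest gene of all those compared, 0.09 log2 units apart, and for both the next were Hbq1a, a theta-globin, and Car2, a carbonic anhydrase of red cells. Prxl2a was nearest to Ube2o (0.14), Bpgm (0.14) and Ube2l6 (0.15), of which Ube2o is a ubiquitin-conjugating enzyme known for clearing proteins from reticulocytes. Specc1 was nearest to the exonuclease gene Isg20 (0.11), then Ube2o and Slc25a37.

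Cdr2 had the closest match in the group, Mpp1, a red-cell membrane palmitoylated protein, at 0.05, followed by Slc7a5 and Gda. Ccndbp1 was nearest to Dcaf12 (0.06), Tbcel and Fech, the enzyme that puts iron into heme. Emb was nearest to the cell cycle factor gene E2f2 (0.14), then Tspo2 and Prxl2a. Ctse had no near match, with Car2 first at 0.25, then Tent5c and Trim10. Tspan8 was nearest to Tspan33 (0.20), Slc7a5 and Cdr2. For Tspan33 the nearest genes were Cytip (0.18), Dennd4a and Itga4, the first and last known from white blood cells. Of these 30 places, 8 went to genes of the red-cell list and 6 to other members. Because closeness here includes the size of the difference, it favours genes of like rise.

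Relatives of the 10 genes were not used to pick them and were tested over all genes. They were taken loosely, by family or partnership. Some listed with Cd24a share only its kind of lipid anchor, and some listed with Ccndbp1 are partners of cyclins. Their lists were drawn up with earlier results of these data known. Limma called 0 of 85 measured relatives at an adjusted p of 0.05, where 0.181% of all genes were called, so 0 is near that share. Of the 85, 10 (11.8%) had an unadjusted limma p under 0.05, against 8.69% of all genes. For 17 of the 85 (20%) every sickle array was above every control array, against 7.61% of all genes. The relatives were above control in 58 of 85 (68.2%, against 48.4% of all genes), with a median of 0.08 and a range from -0.25 to 0.90. The smallest adjusted p was 0.399. No relative reached the difference of Ccndbp1, the lowest member, but the members were picked for their rise.

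Among poly(A) polymerases, the closest kin of Tent5c had differences near 0: Tent5a differed by -0.01 (95% interval -0.59 to 0.56), Tent5b by -0.01 (-0.29 to 0.27) and Tent5d by -0.05 (-0.29 to 0.19). Tent2 (0.24 ± 0.14, SE), Tent4b (-0.15 ± 0.09) and Tent4a (0.12 ± 0.13) had the smallest p of that family and did not pass. For Prxl2a, the paralogs Prxl2b and Prxl2c differed by -0.16 ± 0.11 and -0.07 ± 0.13 (SE). Peroxiredoxin 2, abundant in red cells, differed by 0.14 ± 0.11, and Prdx3 by -0.15 ± 0.12. None of these 5 measured Prxl2 and peroxiredoxin genes was called, where 0.181% of all genes were.

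Of 17 cathepsins and aspartic proteases other than Ctse, 14 were above control, against 48.4% of all genes. Their median was 0.15, and 0.04 without sickle replicate 3. Ctsk (0.71 ± 0.38, SE), a collagen-degrading protease, and Ctss (0.90 ± 0.54), a protease of antigen-presenting cells, had 0.21 and 0.19 without that array, and Ctsc had 0.35 ± 0.20 over all arrays and 0.10 without it. Relative to control, the median of these 17 was 0.04, 0.03 and 0.42 in sickle replicates 1, 2 and 3. Ctse, picked for its rise, had 1.97, 2.61 and 2.93.

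Embigin's sister proteins basigin (Bsg, 0.03, 95% interval -0.18 to 0.23) and neuroplastin (Nptn, 0.05, -0.17 to 0.27) were not called. The lactate transporter genes served by them differed by 0.05 (Slc16a1), 0.16 (Slc16a7), 0.07 (Slc16a3) and -0.19 (Slc16a8). Specc1l, the paralog of Specc1, differed by -0.07 (95% interval -0.29 to 0.15), and Cdr2l, the paralog of Cdr2, by 0.16 (-0.10 to 0.42). Specc1 and Cdr2 were picked for their rise on these arrays, so nothing is concluded from their larger differences.

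The genes listed with Ccndbp1 were cyclins, their kinases, Rb1 and helix-loop-helix factors. All 12 were above control in mean (48.4% of all genes were). None was called. Ccnd2 had 10.39, 10.27 and 9.99 in sickle and 9.84, 9.70 and 9.66 in control (0.48 ± 0.13, SE; limma adjusted p = 0.399). Ccnd1, the cyclin Ccndbp1 is named for, had 9.37, 9.72 and 9.14 in sickle and 9.02, 8.75 and 8.68 in control (0.59 ± 0.17; adjusted p = 0.424). Groups did not overlap for either gene, and both differences were larger without sickle replicate 3 (0.59 and 0.73). Id2 had 0.40 ± 0.16, and 0.21 without that array. The median of these 12 listed genes was 0.20, and 0.10 without that array.

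Of 28 other tetraspanins, 16 were above control, against 48.4% of all genes, with a median of 0.01. Limma called 0 of them, near the share of 0.181% of all genes. Tspan2 (0.48 ± 0.14, SE), Cd37 (0.29 ± 0.11) and Tspan32 (0.39 ± 0.16) had the smallest p, with adjusted p from 0.441 to 0.565. Within the subfamily of Tspan33 that escorts Adam10, Tspan15 had -0.25 ± 0.11, Tspan17 0.35 ± 0.17 and Tspan10 -0.14 ± 0.13, and Adam10 itself differed by 0.08 (95% interval -0.24 to 0.40). For Cd24a, its sialic-acid receptor gene Siglecg differed by -0.03 (95% interval -0.23 to 0.17). The adhesion receptor gene Selp had 0.71 ± 0.27, the lipid-anchored complement regulator Cd55 0.50 ± 0.15 and Cd109 0.46 ± 0.31, none past the adjustment. Without sickle replicate 3 the differences were 0.40 for Selp, 0.37 for Cd55 and 0.05 for Cd109.

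**Figure D3:**
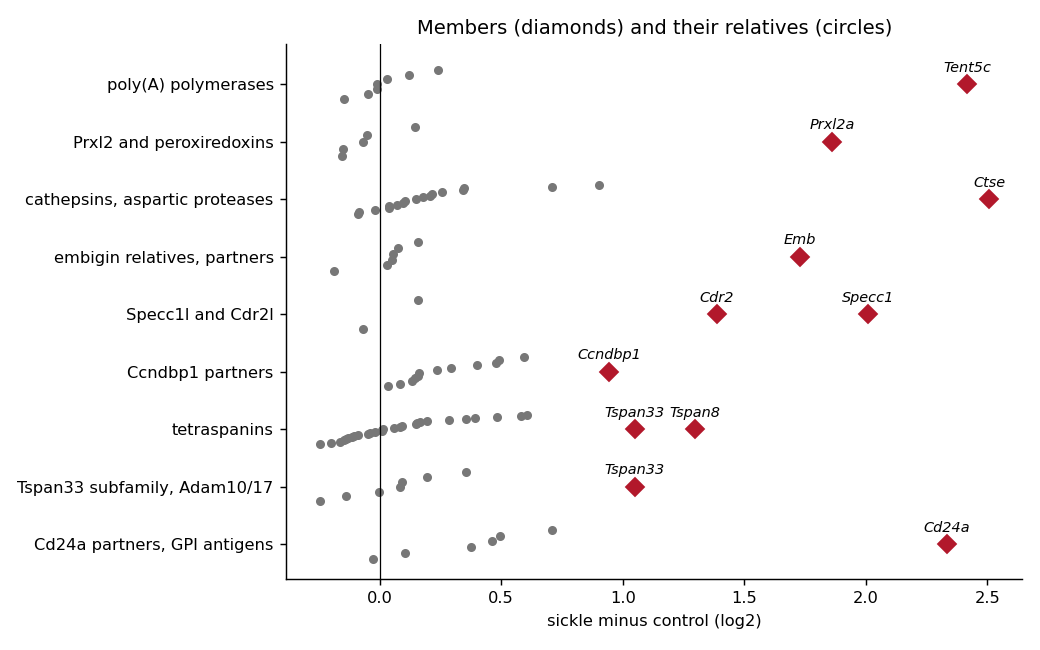
Difference between sickle and control (log2) for the 10 genes (red diamonds, named) and their relatives (grey circles, spread vertically for sight), by list. Tspan33 appears in 2 rows. The 85 relatives lie between -0.25 and 0.90. Each member lies to the right of all relatives in its row, which picking the members for their rise favours.

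The 10 genes lie on 9 chromosomes, Cd24a and Tspan8 both on chromosome 10, by the RefSeq table for GRCm38.p6. Cdr2 is on chromosome 7 with the engineered beta-globin locus, 274 protein-coding genes away from it. The 2 nearest measured genes on either side of each member gave 40 neighbours, of which 1 (2.5%) was called by limma over all genes, against 0.181% of all genes. Their median difference was 0.01, 23 of 40 (57.5%) were above control, and 3 (7.5%) had an unadjusted p under 0.05.

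The called neighbour was Epb42, whose product, protein 4.2, ties the red-cell skeleton to its membrane. It is the next measured gene to Ccndbp1 on chromosome 2, on the opposite strand. Epb42 had 6.62, 7.69 and 7.46 in sickle and 5.32, 5.02 and 4.62 in control (2.27 ± 0.29, SE; adjusted p = 0.0431). It was called without sickle replicate 1 and not called without any 1 of the other arrays. Tmem62, on the other side of Ccndbp1, differed by 0.08 ± 0.09. The next highest neighbour was F930017D23Rik beside Cd24a, with 6.73, 7.47 and 6.69 in sickle and 6.19, 6.05 and 5.87 in control. Its groups did not overlap and its difference was 0.93 ± 0.21 (adjusted p = 0.325), while Mtres1 on the other side of Cd24a had -0.35 ± 0.15.

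Of the remaining nearest neighbours none was called. Beside Ctse, Avpr1b had -0.40 ± 0.18 (SE) and Rab7b 0.23 ± 0.25. Prxl2a lies next to the tetraspanin gene Tspan14 (0.09 ± 0.16) and Dydc2 (0.07 ± 0.09). Specc1 lies between Akap10 (0.01 ± 0.09) and Zswim7 (-0.03 ± 0.13), and Cdr2 between Polr3e (0.11 ± 0.11) and Mfsd13b (-0.05 ± 0.13). Around Tspan33, Tnpo3 had 0.00 ± 0.10 and Smo 0.06 ± 0.14. Ptprr beside Tspan8 had 0.16 ± 0.09. The nearest genes to Tent5c were 4930406D18Rik (-0.09 ± 0.09) and Gm12474 (-0.04 ± 0.16), those to Emb Gm6416 (-0.22 ± 0.15) and 4933413L06Rik (0.04 ± 0.16), and A930009A15Rik on the other side of Tspan8 had 0.00 ± 0.11.

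**Figure D4:**
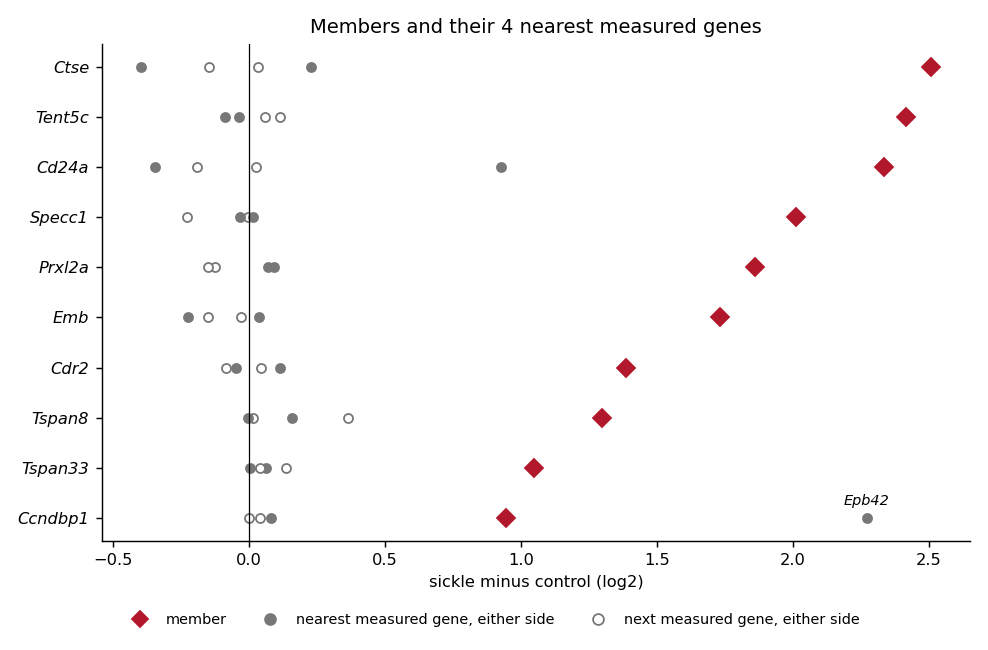
Difference between sickle and control (log2) for the 10 genes (red diamonds) and the 4 nearest measured genes of each (filled circles for the nearest on either side, open circles for the next), 1 row per member. Apart from Epb42 at 2.27 beside Ccndbp1 and an unnamed transcript at 0.93 beside Cd24a, the neighbours lie between -0.40 and 0.36.

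Promoters were read because the 10 genes were higher together. RefSeq windows from 250 bases before to 50 bases after the start of transcription were found for 8 of the 10 genes, 13 windows in all, and none was used for Cd24a and Ctse. They were searched on both strands for the word AGATAA, the word AGATAG, the word TGATAA and the word TGATAG, all forms bound by GATA factors such as the erythroid regulator GATA1. At least 1 such word was in 4 of 13 windows, of Prxl2a, Specc1 and Tspan8, and in 29.8% of all 32851 mouse windows of that length. In the windows of the red-cell list it was found in 12 of 23. The word CCNCNCCC, which resembles sites of KLF-type factors, was in 8 of 13 windows against 49.5% of all, and TGANTCA, the core of NF-E2 and AP-1 sites, in 2 of 13, against 7.81% of all; those are overlapping windows of Prxl2a that hold the same match. The 3 searches were made separately, so their matches may overlap, and a match is letters in a window, not a site shown to be bound.

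For each of the 3 genes with a GATA word, the window in which such a word lies nearest to the start is printed with the words in capitals, read 5′ to 3′ along the gene; CTATCA is how TGATAG reads from the opposite strand, and CTATCT how AGATAG does. The nearest word begins 79 bases before the start in Prxl2a and 74 bases before it in Specc1 and Tspan8. The Prxl2a window is chr14:41006871-41007170 on the minus strand, and the other Prxl2a windows, at starts further upstream, held no such word. That of Specc1 is chr11:62076774-62077073 on the plus strand and that of Tspan8 chr10:115817034-115817333 on the plus strand (GRCm38.p6).
Prxl2a: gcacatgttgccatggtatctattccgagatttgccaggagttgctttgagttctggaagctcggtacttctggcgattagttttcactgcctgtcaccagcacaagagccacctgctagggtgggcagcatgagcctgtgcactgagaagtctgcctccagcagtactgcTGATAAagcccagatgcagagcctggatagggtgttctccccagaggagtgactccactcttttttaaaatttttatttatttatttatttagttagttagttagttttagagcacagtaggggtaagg
Specc1: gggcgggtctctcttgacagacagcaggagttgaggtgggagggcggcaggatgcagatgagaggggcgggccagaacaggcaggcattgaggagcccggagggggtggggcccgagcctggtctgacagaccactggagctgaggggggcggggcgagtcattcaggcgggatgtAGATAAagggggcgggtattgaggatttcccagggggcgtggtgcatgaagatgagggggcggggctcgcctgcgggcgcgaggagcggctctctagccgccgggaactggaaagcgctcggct
Tspan8: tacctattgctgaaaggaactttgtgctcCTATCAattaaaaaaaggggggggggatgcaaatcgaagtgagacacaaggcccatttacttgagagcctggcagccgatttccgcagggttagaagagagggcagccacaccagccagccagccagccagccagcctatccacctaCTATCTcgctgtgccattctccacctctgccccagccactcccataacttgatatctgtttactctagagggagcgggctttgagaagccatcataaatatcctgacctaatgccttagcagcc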

How the data were processed

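Left ventricle RNA of 6 mice was measured on 6 arrays (Affymetrix Mouse Gene 2.0 ST), and groups and replicate numbers were read from the sample titles. The authors deposited 1 table of log2 values made with RMA, per the submitters' processing notes, which give no version; the values themselves show the log2 scale. Scan dates and the genome build were not given in the labels. The array platform annotation gave 22030 of 25293 rows exactly 1 gene symbol, and the row with the highest mean stood for each of 21506 genes, with no filter on dim genes.

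Limma 3.58.1 in R 4.3.3 (lmFit, eBayes, group as the only term, two-sided) was run on all genes, with Benjamini-Hochberg adjustment at 0.05. Differences are sickle minus control, standard errors (SE) are moderated, and the number of arrays limits the precision. In a simulation of sickle against control over 21506 genes, 16 of 67 genes changed by 1.5-fold, 39 of 67 changed by 2-fold and 65 of 66 changed by 4-fold were called.

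The members, the gene lists, the rules for naming genes and the tests were chosen with earlier results of these data known, so the members' own differences are given without a test. Named were the members, of each list of relatives the genes with the smallest p and, for their kinship, the closest paralogs or partners, of the red-cell list the largest differences, the nearest measured neighbours, and for each member the 3 most similar profiles with symbols of predicted or unnamed genes left out. Neighbours and promoter sequences came from RefSeq tables for GRCm38.p6, and promoter windows were found for 8 of 10 members. Alternatives were an intensity trend in the prior variance, leaving out genes with a mean log2 under 5, repeating the quantile normalisation, centring arrays on their medians, limma array weights, a replicate block, averaging a gene's rows, and leaving out each array. Figures were drawn with matplotlib 3.10.9.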

Additional observations from a re-analysis of the deposited data

How the results depend on the processing

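The median difference of the 10 members moved by less than the spread between arrays under every alternative tried (1.62 to 1.97, against 1.80; 1.67 to 1.97 with 1 array left out). Of the single members' differences, Emb was the 1 that moved by more, to 0.85 with the mean of its 2 rows in place of the brighter row. Filtering dim genes removed Tspan8, which left 9 members. The number of genes called was 39, and it was 12 with the replicate number as a block and between 4 and 36 with 1 array left out. Of the 10 members, 4 were among the called genes with the block, 8 with arrays centred on their median and 9 with the mean of a gene's rows. For the red-cell list the count was 10, against 3 with the block and 0 to 10 with 1 array left out. Among the neighbours it was 1, against 0 with the block and 0 to 1 with 1 array left out. Relatives gave 0 calls under all alternatives. Same-numbered arrays of the groups had correlations of their deviations of 0.11, -0.05 and 0.05, so the numbers were not taken to pair the mice. What causes these shifts in the counts was not tested, other than the smaller number of arrays or of residual degrees of freedom that leaving out an array or adding the block brings by construction. With 3 arrays per group, changes of 1.5-fold were mostly missed in simulated data.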
